A study of Mus musculus with 4 samples.

Results

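In thymus of p53 AD/AD mice, 223 autosomal sites lay in the summit lists of both p53 libraries and of the PPAR-alpha library while standing far from the ends of protein-coding genes. They were chosen by position alone: a p53 replicate 1 summit on chromosomes 1 to 19 with a replicate 2 summit and a PPAR-alpha summit each within 500 bp, over 5 kb from both ends of every coding gene, and outside runs of 3 or more replicate 1 summits within 10 kb. The list of replicate 1 held 3608 summits in all, that of replicate 2 held 4767 and that of PPAR-alpha 4070. Of the 3597 autosomal summits of replicate 1, 826 had both partners, or 23.0%, and 281 of these were far from gene ends, of which 58 fell in runs. Among the 983 far summits outside runs, the 223 made up 22.7%, and among summits near gene ends 485 of 2185 were shared, or 22.2%. These shares describe the rule and nothing was read from them.

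Chromatin immunoprecipitation enriches DNA bound by a protein, and a summit is the base where the pile-up of reads in a called peak is highest. All mice carried the germline AD allele on both copies of p53, which the study describes as a p53 that forms dimers, and thymus was taken at 4 weeks of age in the basal state. Reads were 50 nt long for both p53 libraries and the input and 75 nt for the only PPAR-alpha library, so the effects of antibody and of read length cannot be told apart. The labels do not say whether the p53 libraries came from separate mice, no library from mice with unaltered p53 was analysed here, and neither was the input, which had no summit list among the files.

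The p53 protein is a transcription factor that normally binds DNA as a tetramer, on a pair of 10-base units, and acts on genes of cell cycle arrest, apoptosis and metabolism. PPAR-alpha is a nuclear receptor that binds DNA with RXR at direct repeats and is known for switching on fatty acid oxidation genes in liver. Sites far from gene ends lie in introns or between genes, where enhancers of thymocytes, the developing T cells that make up most of the thymus, are found.

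At some of the sites a transcription start of an inner coding transcript or of a noncoding RNA lay close by, and there the reference sequence could be shown. Of the 217 sites on chromosomes with a RefSeq start table, 24 had their replicate 1 summit within 500 bp of a start, or 11.1% (exact Clopper-Pearson 95% interval 7.22 to 16). Among the other far summits of replicate 1 the share was 89 of 740, or 12.0%. Of the 24 starts, 17 were of coding genes and 7 of long noncoding RNAs. The following lines give the 200 bases before 5 of these starts, 5′ to 3′ on the gene's strand, from RefSeq on GRCm38.p6. Lck, Cd247 and Fyb are genes of T cell signalling, Gm13982 lies upstream of another, and Gabpb1 was the highest-scoring site at a start. Capitals mark matches on either strand to GGAAGT, a core that ETS factors bind, and, in Lck only, to the 10-base unit of the p53 response element, called the p53 decamer from here on. The Fyb and Gabpb1 runs hold neither. The Gabpb1 run does hold CCGGAA, a related ETS core, which is not marked.
Lck, chr4:129558373-129558572, minus strand: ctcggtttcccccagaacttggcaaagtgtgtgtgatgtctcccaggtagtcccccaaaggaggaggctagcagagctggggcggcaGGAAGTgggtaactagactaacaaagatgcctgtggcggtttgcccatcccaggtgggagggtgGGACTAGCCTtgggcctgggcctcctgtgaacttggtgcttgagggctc
Cd247, chr1:165788481-165788680, plus strand: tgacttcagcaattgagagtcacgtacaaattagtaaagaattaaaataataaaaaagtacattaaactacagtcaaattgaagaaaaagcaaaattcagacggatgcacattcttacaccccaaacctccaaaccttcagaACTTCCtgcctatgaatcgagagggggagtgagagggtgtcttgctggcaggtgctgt
Fyb, chr15:6579647-6579846, plus strand: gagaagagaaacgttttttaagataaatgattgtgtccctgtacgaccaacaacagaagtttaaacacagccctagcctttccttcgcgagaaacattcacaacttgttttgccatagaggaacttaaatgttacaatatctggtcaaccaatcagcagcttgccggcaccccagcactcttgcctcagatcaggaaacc
Gm13982, chr2:117417698-117417897, minus strand: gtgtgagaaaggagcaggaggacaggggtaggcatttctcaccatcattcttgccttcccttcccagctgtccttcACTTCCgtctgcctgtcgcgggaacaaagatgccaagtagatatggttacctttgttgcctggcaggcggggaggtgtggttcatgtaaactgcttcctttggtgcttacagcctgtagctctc
Gabpb1, chr2:126675593-126675792, minus strand: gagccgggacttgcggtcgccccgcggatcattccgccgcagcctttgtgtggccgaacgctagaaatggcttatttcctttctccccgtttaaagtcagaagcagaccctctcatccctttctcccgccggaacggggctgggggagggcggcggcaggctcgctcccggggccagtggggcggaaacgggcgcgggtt

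Lck is the SRC-family kinase that starts T cell receptor signalling, and its inner start is the proximal promoter that thymocytes use. The Lck summits lay 173 bp upstream of that start in p53 replicate 1, 159 bp in replicate 2 and 228 bp in PPAR-alpha, with scores of 2.74, 5.88 and 13.8. A score is the authors' value for a peak in its own list, in an unstated unit taken here to be −log10 of a p- or q-value. It ranks peaks within a list, and scores of different lists are set side by side as deposited, not on 1 scale. All 3 summits at Lck lay farther from the start than the GGAAGT match, which begins 113 bases upstream, and than the p53 decamer, which spans bases 49 to 40 upstream. Cd247, the zeta chain of the T cell receptor complex, had its summits 125 bp, 235 bp and 100 bp downstream of an inner start, with scores of 2.74, 6.72 and 10.7. Fyb encodes an adaptor protein of T cell signalling, and its summits lay 10 bp downstream of an inner start in replicate 1, 213 bp upstream in replicate 2 and 208 bp downstream in PPAR-alpha, a span of 421 bp, with scores of 3.34, 1.83 and 3.06. The site at the start of the noncoding RNA Gm13982, 74842 bp from the body of Rasgrp1, an activator of RAS in thymocytes, had its summits 22 bp upstream, 86 bp downstream and 101 bp upstream of that start, with scores of 1.68, 5.08 and 9.27. Against the medians over all sites, which were 5.45, 4.33 and 9.27, Lck and Cd247 were low in replicate 1 and high in the other lists, and Fyb was low in all 3. The Gm13982 site was above the median in replicate 2 and at it in PPAR-alpha. Its 1.68 in replicate 1 is the lowest score of that whole list.

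Gabpb1 encodes the beta subunit of GABP, whose alpha subunit is an ETS protein. Its summits lay 19 bp downstream of an inner start in replicate 1, 11 bp upstream in replicate 2 and 30 bp downstream in PPAR-alpha. The scores were 11.6, 22.9 and 45.5, the highest in each list among the 24 sites at starts. Over all 24, median scores were 4.34 in replicate 1, 5.08 in replicate 2 and 6.88 in PPAR-alpha, and 9 replicate 1 summits lay upstream of the start. PPAR-alpha reached 10 at 6 of the 24, or 25%, and at 89 of the other 199 sites, or 44.7%. The 199 include the 6 sites on chromosome 18, whose distance to a start is not known.

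**Figure D1:**
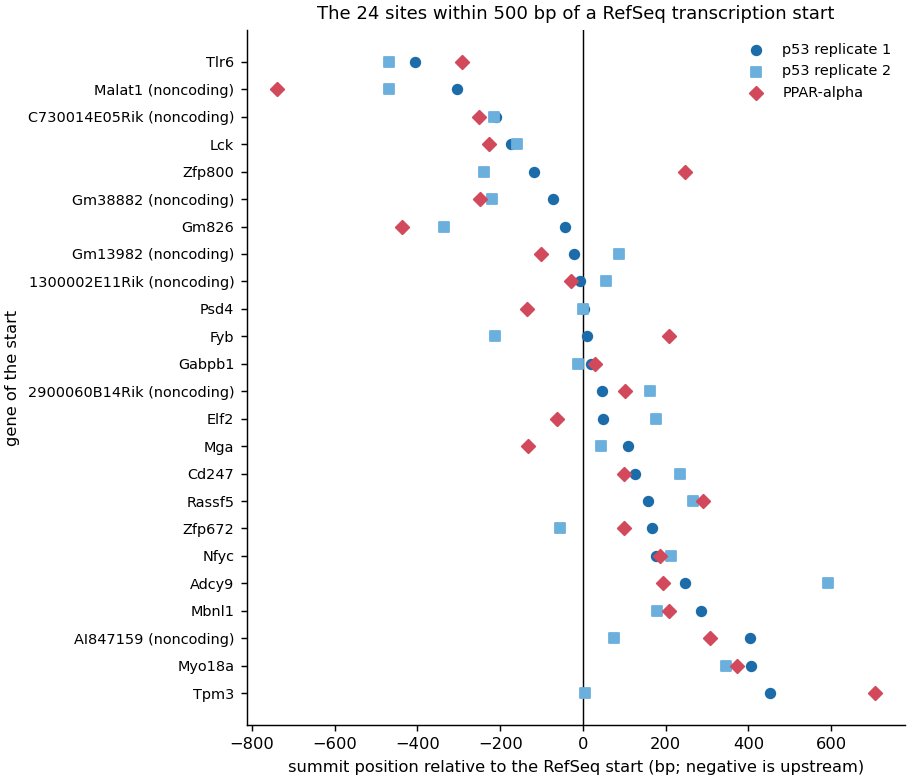
Position of the summit in each library relative to the RefSeq transcription start, in bp, for the 24 sites within 500 bp of a start, 1 row per start. Gabpb1 and Lck have all 3 summits close together, whereas at Tpm3 they span 699 bp.

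Letters in the 300-base windows of the 24 starts, which run from 250 bases before to 50 after, were counted on both strands. The p53 decamer was in 1 window, or 4.17% (95% interval 0.105 to 21.1), against 8.36% of all 32851 windows. A pair of decamers up to 13 bases apart was in 0 of 24 windows (interval to 14.2%) and in 0.0731% of all windows. The nuclear receptor core AGGTCA was in 3 windows, or 12.5%, against 16.3% of all, and a direct repeat of it with 1 base between, the element of PPAR, in 0 (interval to 14.2%) against 0.0396%. A window without a match says only that these letters are not in it.

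Other motifs were added after values and letters had been seen. GGAAGT was in 12 of 24 windows, or 50.0% (29.1 to 70.9), in 23 of 88 windows at the other far summits, or 26.1% (17.3 to 36.6), and in 23.8% of all windows. Since it was picked by reading these very windows, its count is a description. CCGGAA, a related ETS core, was in 3 windows, or 12.5%, against 28.4% at the other far summits and 14.9% of all. GGGCGG, the GC box, was in 13 windows, or 54.2%, against 53.4% at the other far summits and 35.7% of all. GC content had a median of 58.0% in the 24 windows and 52.7% in all windows, and the number of CpG pairs a median of 12.5 and 7. Of the printed runs only Lck holds both GGAAGT and the p53 decamer, which do not overlap there, and none holds AGGTCA.

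A further site lay beside a microRNA. Its replicate 1 summit, chr10:122985627, was 13 bp outside the hairpin of let-7i (chr10:122985640-122985724, minus strand), replicate 2 lay 19 bp and PPAR-alpha 105 bp from it. The scores were 9.72, 5.88 and 19.8. Let-7 microRNAs repress growth and stemness genes in many tissues. This site, those beside the T cell receptor alpha constant region and far from Bcl11b, and the sites given for Galc, Sag and Anapc16 were singled out after their values were seen. The mature sequences from RefSeq follow, with the seed, bases 2 to 8, in capitals.
let-7i-5p: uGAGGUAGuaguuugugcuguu
let-7i-3p: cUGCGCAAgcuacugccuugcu

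Scores of the 223 sites were mostly low, with a few that were very high. In p53 replicate 1 they ran from 1.68 through a median of 5.45 to 2455, in replicate 2 from 1.34 through 4.33 to 2791, and in PPAR-alpha from 2.11 through 9.27 to 3183. The whole lists had medians of 3.99, 3.62 and 4.70. All 3 libraries reached 50 at 12 sites, at least 1 library did at 22, and 201 stayed under 50 in every list. A score of 5 or more in all 3 lists was met by 65 sites, and 31 were under 5 in all 3. Only 37 different scores occurred in each p53 list over the 223 sites, so many low sites were tied.

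The 485 shared sites near gene ends were set beside the far sites. The near sites had medians of 5.45 in replicate 1, 5.08 in replicate 2 and 5.91 in PPAR-alpha. PPAR-alpha reached 10 at 95 of 223 far sites, or 42.6%, and at 117 of 485 near sites, or 24.1%. In p53 replicate 1 the counts were 35 far sites, or 15.7%, and 60 near sites, or 12.4%. In replicate 2 they were 32 far sites, or 14.3%, and 69 near sites, or 14.2%. No test was made, since both sets were chosen from these libraries, and the PPAR-alpha library has no replicate.

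Spearman's rho between scores over the 223 sites was 0.465 for the p53 libraries, 0.515 for replicate 1 with PPAR-alpha and 0.488 for replicate 2 with PPAR-alpha. Over the 201 sites under 50 these fell to 0.299, 0.346 and 0.328. The value for the p53 pair was the lowest of the 3 in both sets, but the 3 values lay close together and their order was not tested. The 201 sites are part of the 223, so the sets are not separate. The points share tissue and possibly a control, and these values are a description.

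**Figure D2:**
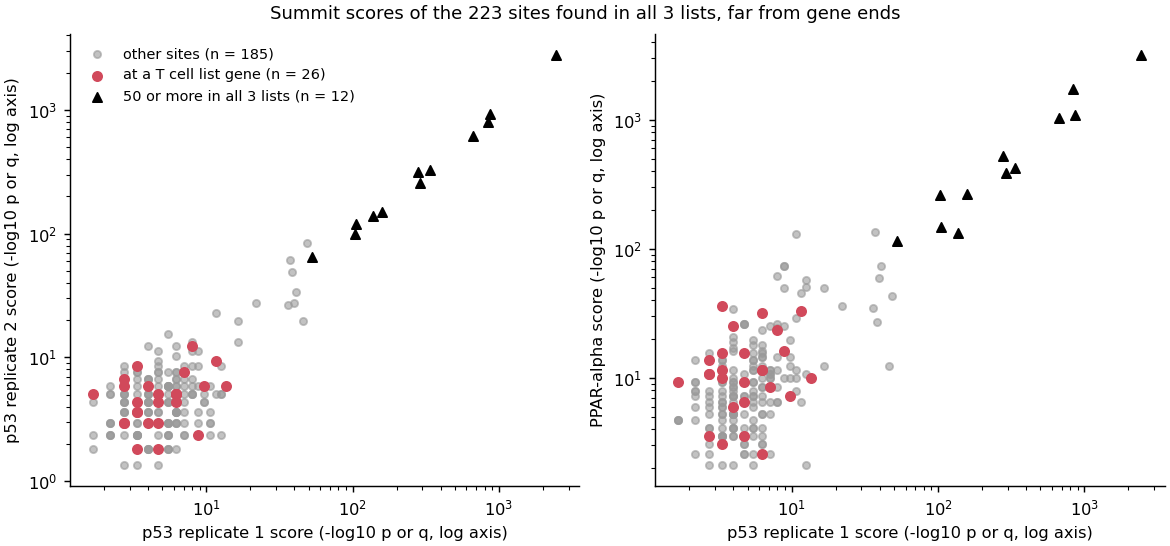
Scores of the 223 sites on log axes, p53 replicate 1 against replicate 2 (left) and against PPAR-alpha (right), 1 point per site. The 12 sites at 50 or more in all lists lie along a line, while the 26 sites at T cell list genes sit in the low cloud.

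Inside coding genes lay 49.3% of all 223 sites, so close to equal shares lay inside and outside. Of the 10 leading sites, by the product of their ranks in the 3 lists, 7 lay outside coding genes. The first was chr9:35305413, inside the noncoding gene Gm33838 and 29456 bp from the coding gene Rpusd4. It scored 2455 in replicate 1, 2791 in replicate 2 and 3183 in PPAR-alpha, and all 3 summits fell on the same base. The second, chr14:19417876, was 115824 bp from Gm2244 and scored 837, 802 and 1721. The third, chr6:103649195, was inside Chl1, a neural cell adhesion gene, and scored 868, 932 and 1083. At both, the 3 summits lay within 1 bp, and with the first they were the closest of all members.

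The site chr15:75086841, between genes and 21320 bp from Ly6c2, scored 669, 621 and 1033. The sites chr12:3110003 near Rab10 and chr13:3373144 near Gdi2, both over 100 kb from those genes, scored 336, 329 and 421, and 278, 316 and 524. Inside Sfi1, a centrosome gene, chr11:3193325 scored 291, 258 and 387 and chr11:3179113 scored 104, 99.0 and 263. The sites of this paragraph stood far above the medians in every list. The site chr3:5860644 lay 282048 bp from Pex2 and scored 158, 150.4 and 267. The tenth, chr1:24614803, lay 26881 bp from Col19a1 and 152 bp from the noncoding gene Gm10925, and scored 137, 139 and 132. Of the 22 sites at 50 or more in any list, 0 were at a gene of the T cell lists, with an interval up to 15.4% that holds the 11.7% of all 223 sites. Those lists do not hold Trac, the T cell receptor alpha constant region. Of the 22, chr14:54227532 lay 3334 bp from it and scored 130.2 in PPAR-alpha. The input at these places was not analysed here, so whether reads pile up there without an antibody was not tested.

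The next group, the 10 highest among sites under 50 in every list, was led by a site 32184 bp from Eea1, an endosome tether, with scores of 38.4, 48.9 and 27.1. A site 62295 bp from Ccnh, a cyclin of the general transcription machinery, scored 35.96, 26.4 and 35.03. Inside Camk1d, a calcium-dependent kinase, the scores were 21.96, 27.6 and 36.05. All 3 sites were above the medians of the 223 in every list. Inside Tmem267 they were 16.6, 19.6 and 49.9, and Gabpb1 came next. Inside Scml4, a Polycomb-type gene, scores were 46.0, 19.6 and 12.3, and inside Cdyl2, a chromodomain gene, 8.81, 5.88 and 49.9. Scml4 was the highest of these 10 in replicate 1, and Cdyl2 and Tmem267 were the highest in PPAR-alpha. The site nearest Sfi1 but outside it, 29966 bp away, scored 16.6, 13.3 and 12.3. Runx1 and Ccr9 complete the group and are given with the T cell genes.

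The summits of the 3 libraries did not usually fall on the same base. From replicate 1 the median distance was 96 bp to the replicate 2 summit and 83 bp to the PPAR-alpha summit, and the 3 summits of a site spanned a median of 163 bp (order-statistic interval 138 to 187). The span was at most 50 bp at 32 sites, or 14.3%, and at most 250 bp at 150 sites, or 67.3%. At the 12 sites of 50 or more it had a median of 14.5 bp, and at the 201 under 50 of 176 bp. Shared sites near gene ends had a median span of 184 bp.

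**Figure D3:**
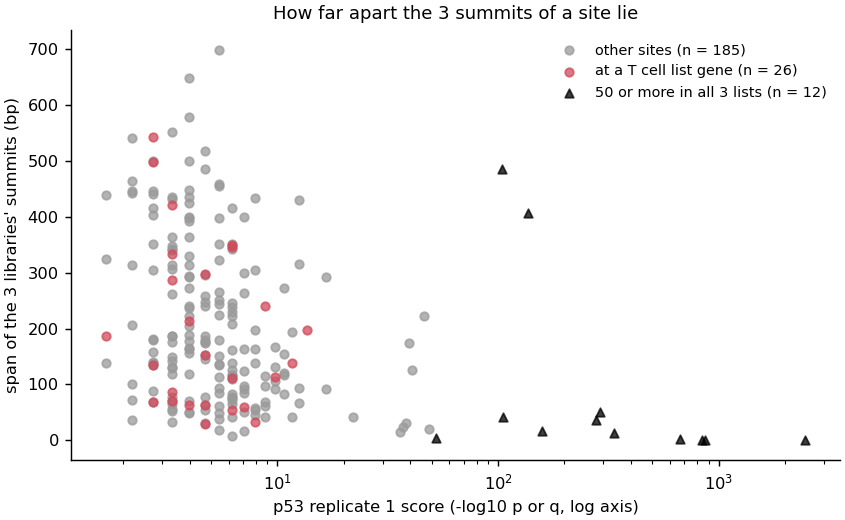
Span of the 3 libraries' summits, in bp, against the p53 replicate 1 score on a log axis, 1 point per site. Of the 12 sites at 50 or more in all lists 10 span at most 50 bp, whereas the low sites spread up to 699 bp.

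Sites at genes of T cells took up 26 of the 223, or 11.7% (7.76 to 16.6), over 19 of the 93 genes of 3 lists. Most of the listed genes thus had no site. The other 760 far summits gave 70, or 9.21% (7.25 to 11.5), over 38 of the same 93 genes, so the intervals overlapped. Together the 3 lists hold more genes than any other list counted here, so counts of different lists are not comparable. A site was counted for a gene when it lay in that gene's body or had it as the nearest coding gene, which does not show that the gene is its target. Thymocyte identity genes held 7 sites, or 3.14%, against 1.97% of the other far summits. T lineage transcription factors, a list that also includes the RNA-binding protein Zfp36l2, held 12, or 5.38%, against 4.21%. T cell receptor signalling genes held 7, or 3.14%, against 3.03%. Counted instead by a listed gene's body within 100 kb, the 3 lists together had 11.2% of sites, against 9.74% of the other far summits. The 26 had median scores of 4.70, 5.08 and 10.7, and the other 175 sites under 50 had 4.70, 4.33 and 7.20.

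Among receptors and surface proteins, Ptprc, the phosphatase CD45, had 3 sites. The site inside its body, chr1:138136641, scored 3.34, 8.48 and 15.5. The site 15969 bp outside its body scored 6.24, 5.08 and 32.0, and the site 255871 bp away scored 3.34, 3.62 and 36.05. All 3 were above the PPAR-alpha median of the 223, and the last was the highest PPAR-alpha value at a T cell list gene. Ccr9, a chemokine receptor of thymocytes, had sites 10239 bp and 12723 bp upstream of its start. They scored 7.93, 12.3 and 23.4 in the nearer and 3.99, 5.88 and 25.2 in the farther. Thy1, the classical surface marker of mouse thymocytes, had a site 12045 bp away that scored 6.24, 5.08 and 11.5. The Ccr9 pair lay 2484 bp apart, and both were above 20 in PPAR-alpha.

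Among kinases and adaptors, Prkcq, the protein kinase C of the T cell synapse, scored 7.07, 7.58 and 8.57, and Prkcb 2.74, 2.97 and 3.58. Tespa1, a thymocyte signalling adaptor, scored 4.70, 2.97 and 3.58. Prkcq was the highest of these 3 in every list. Lck, Cd247, Fyb and Rasgrp1 are given with their starts.

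Among transcription factors, Runx1, which acts in early T cell development, had a site 326809 bp upstream of its start with 11.6, 9.40 and 33.0. A second site inside Runx1, 24299 bp from that start, scored 4.70, 4.33 and 6.55. Gata3, which specifies T cells and then helper cells, had a site 283060 bp downstream of its nearest annotated start, beyond the gene, with 8.81, 2.37 and 16.3. Its site inside the body, 1471 bp from that start, scored 6.24, 4.33 and 2.57. The far site of each pair had the higher PPAR-alpha score. Lef1 had a site 163141 bp upstream of its start with 3.34, 3.62 and 11.5 and a site in its body with 3.34, 4.33 and 9.995. Tcf12, the E protein HEB, had a site 21373 bp outside with 13.6, 5.88 and 9.995 and a site inside with 3.99, 2.97 and 5.91. In Tcf12 the outside site was the higher in all 3 lists, and its 13.6 was the highest p53 replicate 1 score of the 26.

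Bcl11b, which commits cells to the T lineage, had a site inside its body with 2.74, 2.97 and 10.7. A member chr12:107139021, nearest to Gm52008, lay 864393 bp downstream of the Bcl11b start and scored 5.45, 5.88 and 19.8. Foxp1 scored 9.72, 5.88 and 7.20 in its body, Foxo1 4.70, 1.83 and 9.27 at 297982 bp from it, and Zfp36l2 6.24, 5.08 and 11.5 at 63940 bp. These forkhead factors and the RNA-binding protein Zfp36l2 act in keeping lymphocytes quiescent. Foxp1 was above the medians of the 223 in both p53 lists and below that of PPAR-alpha.

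**Figure D4:**
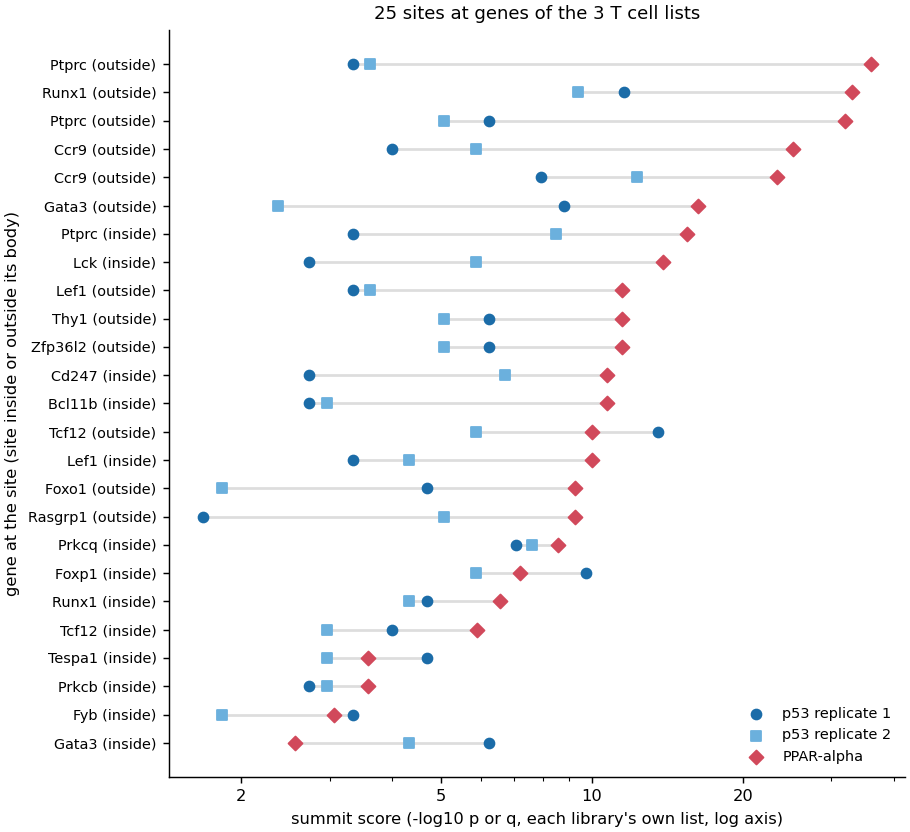
Scores in each library of 25 of the 26 sites at genes of the 3 T cell lists, on a log axis, 1 row per site and sorted by PPAR-alpha score. PPAR-alpha runs from 2.57 at Gata3 to 36.05 at Ptprc, while the p53 scores reach at most 13.6, at Tcf12.

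The T cell receptor alpha locus was touched by 1 member, chr14:54227532, which lay 3334 bp from the constant region Trac, between it and Dad1. It scored 10.7, 5.88 and 130.2, and was thus 1 of 8 sites at 50 or more in PPAR-alpha and under 50 in both p53 lists. The enhancer of the alpha chain is known to lie between Trac and Dad1.

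Lists of p53 and PPAR-alpha target genes were counted in the same way. Of 54 p53 targets, 3 had a member, or 1.35% of sites (0.278 to 3.88), against 0.789% (0.29 to 1.71) of the other far summits. Trp53inp1, a p53-induced autophagy gene, had a site 9220 bp away with 3.99, 3.62 and 6.55. Def6, a guanine nucleotide exchange factor of T cells, had a site inside with 6.24, 4.33 and 6.55. Both were below the PPAR-alpha median of the 223. Of 57 PPAR-alpha targets, 1 had a member, or 0.448% of sites (0.0114 to 2.47), against 0 of the other 760 far summits (upper limit 0.484%). It was Ehhadh, an enzyme of peroxisomal fatty acid oxidation, with a site 6506 bp upstream of its start and 7 bp from the start of the noncoding RNA 1300002E11Rik. It scored 6.24, 5.88 and 2.57, above the medians of the 223 in p53 and below that in PPAR-alpha. Counted instead by a listed gene's body within 100 kb, p53 targets had 6 sites, or 2.69%, against 2.24% of the other far summits. PPAR-alpha targets then had 3 sites, or 1.35%, against 7 of the other far summits, or 0.921%.

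Marker lists of other cells, of 15 genes each, had counts near 0 in the sites and in the other far summits alike. B cell, myeloid and dendritic, and thymic epithelium lists each had 0 members (95% upper limit 1.64% of sites), and among the other 760 far summits they had 0, 2 (0.263%) and 0. Within 100 kb of a myeloid or dendritic marker lay 1 site, or 0.448%, and 0.395% of the other far summits. The adipocyte list had 1 member against 0 of the other far summits, at Adipoq, 17102 bp away and 210 bp upstream of the start of the noncoding RNA C730014E05Rik, with 6.24, 7.58 and 11.5. Binding lists give no level of RNA, so they check the tissue label only by where sites lie.

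The sites lay between genes more often, as a share, than the other far summits. Inside coding genes lay 110 sites, or 49.3% (42.6 to 56.1), against 59.6% (56.0 to 63.1) of the other 760, and these intervals just overlapped. Between genes lay 88, or 39.5% (33.0 to 46.2), against 27.2% (24.1 to 30.6), and these intervals did not overlap. Inside noncoding genes only lay 25, or 11.2%, against 13.2%. Among the 201 sites under 50 the share inside coding genes was 52.2% (45.1 to 59.3) and that between genes 37.3% (30.6 to 44.4), whose interval meets that of the other far summits at 30.6. Sites are not replicates, and no test was made.

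**Figure D5:**
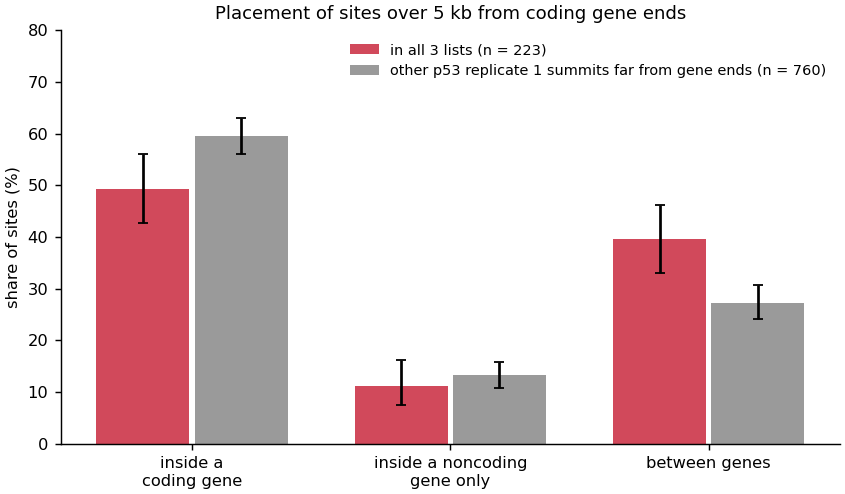
Share of sites, in percent, inside coding genes, inside noncoding genes only and between genes, for the 223 sites in all 3 lists and the other 760 far p53 replicate 1 summits, with exact 95% intervals. The shared sites were more often between genes, 39.5% against 27.2%.

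The distance to the nearest coding gene end had a median of 26287 bp, against 24703 bp for the other far summits. It was over 20 kb at 131 sites, over 50 kb at 68 and over 100 kb at 28. Farthest was a site 1140633 bp from Galc, with scores of 37.2, 61.1 and 134.4. The sites had 210 different host or nearest coding genes, and 11 genes had more than 1. Besides those named, Sag, the arrestin of the retina, had a pair 1470 bp apart with PPAR-alpha scores of 2.57 and 2.11, and Anapc16, a subunit of the anaphase-promoting complex, a pair 3554 bp apart with 4.13 and 51.0. Per chromosome, sites made up between 15.3% of far summits on chromosome 15 and 34.8% on chromosome 19, against 22.7% over all. These extremes rest on small counts, 9 sites beside 50 other far summits and 8 sites beside 15.

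The rule had a limit on distance to partners and a limit on distance to gene ends, and the sites beside each are given. At 499 bp from a partner were a site at Prim2, with 2.18, 2.37 and 7.20, and the one in Bcl11b. Just outside, at 504 bp and 506 bp, were summits at Smad3, with 5.45, 2.97 and 5.91, and at Wipf1, with 3.34, 2.37 and 4.13. For the distance to gene ends, sites at Adprhl1 (5019 bp) and Trp53i11 (5169 bp) were inside, with PPAR-alpha scores of 26.2 and 15.5. Sites at Ubtf (4951 bp) and Rcbtb2 (4995 bp) were outside, with 3.58 and 9.27.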

How the data were processed

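The authors deposited, for each immunoprecipitated library, a list of summits and scores. The authors' deposited scores are in an unstated unit, taken from the values to be −log10 p or q, as MACS2 writes them. MACS2 2.1.2, Bowtie2 2.3.4.2 and Picard 2.9.0 appear in the submitters' processing notes. Settings, control and read numbers, not given in the sources used here, leave the depth unknown. The notes name GRCh38 for mouse tissue, and positions were read as GRCm38 and set against RefSeq genes and start windows of GRCm38.p6. No genome was used, so sequence around most sites was not read. The start table holds no chromosome 18, where 6 sites lay.

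Members, gene lists (all genes matched) and motifs were chosen with earlier results of these data known, and every library entered the choice. Values are therefore counts, medians and shares, with exact Clopper-Pearson 95% intervals for counting error only, and no test. Named were the 10 highest sites by product of ranks, the 10 highest under 50 in all lists, every reported site at a list gene, the 3 closest sets of summits and the 2 sites on each side of each limit. The selection was tested on simulated summits. Tools were Python, numpy, pandas and scipy. Results for some listed genes are not reported here.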

Additional observations from a re-analysis of the deposited data

How the results depend on the processing

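Of 94 recomputed values, 66 moved by less than their own interval or by less than 1.5 times for a count. With a window of 100 bp, 82 sites were left, with median scores of 6.24, 5.88 and 13.1 in p53 replicate 1, replicate 2 and PPAR-alpha, 40.2% inside coding genes and a median span of 62.5 bp. With 1 kb the span was 240.0 bp. Over 20 kb from gene ends 131 sites were left, 41.2% inside coding genes, and with genes of any type 57.4%. With scores of 5 or more in all lists, 65 sites were left, with medians of 8.81, 8.48 and 23.4, 35.4% inside coding genes and a span of 85 bp. A floor on scores by itself raises their medians, and the window limits the span, so the settings fixed the direction of those moves. Without 1 p53 library, 392 to 485 sites were found, with p53 medians of 3.99 (replicate 1) and 3.62 (replicate 2), a PPAR-alpha median of 7.20 and spans of 104 to 105 bp, which are then distances between 2 summits and not the span of 3. With windows of 100 bases around the summit, 12 in number, the p53 decamer and CCGGAA were in 0%, GGAAGT in 16.7% and GGGCGG in 25%. Length, centre and number of windows changed together there, and the cause was not tested. Runs chained over gaps of 10 kb and all 3 summits within 500 bp of each other were added after seeing the data and moved none of these values. No paired analysis was possible because no result comes from a test and PPAR-alpha has 1 library. The missing depth, input list and genome limit what low scores and the highest sites can show.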

Other observations

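The 58 shared far sites in runs, left out by the rule, held the highest scores. At chr2:98667128 they were 7038 in p53 replicate 1, 7057 in replicate 2 and 9205 in PPAR-alpha, with summits within 11 bp. They also held chr11:52314411, 31028 bp from Tcf7, a T lineage transcription factor, with 18.7, 34.8 and 214. On the sex chromosomes 3 shared sites were found, the highest in Apool on chromosome X with 86.1, 96.0 and 195.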
